A study of Mus musculus with 10 samples.

Results

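Array A of the TaqMan Rodent MicroRNA qPCR-array was run on 4 cards, 2 from reverse transcription reaction 2 (RT2) and 2 from reaction 1 (RT1), and these are 4 of the 10 samples of the series. The cards were chosen by their labels, and no measured value entered the choice. All 4 cards measured aliquots of a single RNA sample from proliferating, untreated C2C12 myoblasts, a mouse muscle cell line of the C3H strain, with 500 ng of total RNA in each reaction. The product of each reaction was run on day 2 and on day 1, so that RT2 and RT1 each had 1 card a day. The remaining samples are 4 Array B cards and 2 microarrays of the same RNA. A miRNA was counted as detectable at a mean cycle threshold (Ct) of 35 or less over the 4 cards, and 182 of 375 miRNA assays (48.5%) were. The methods of the study treat a Ct above 35 as too high for detection. A Ct counts the PCR cycles needed to reach a fixed fluorescence, so a higher Ct means less template, and 1 cycle stands for a 2-fold difference at full amplification efficiency. Because the RNA was the same on every card, differences between cards, and the p-values of these differences, measure technical variation only. RT2 and RT1 are single reactions, so p-values between them set their difference against the spread of cards within a reaction. They do not measure how far reverse transcription reactions vary in general.

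MiRNAs are short RNAs that guide Argonaute proteins to messenger RNAs, mainly through the seed near their 5′ end, and thereby repress translation and stability of the targets. Proliferating C2C12 cells are undifferentiated myoblasts, which can fuse into myotubes, and the muscle miRNAs miR-1, miR-133 and miR-206 are known to accumulate when they do. In stem-loop reverse transcription, each primer pairs with the last few bases of a mature miRNA, and a pool of such primers converts all miRNAs of a card in the same tube, so that every assay of a card shares 1 reaction.

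The sequences of the miRNAs on which the comparison turned are given first, 5′ to 3′, with the seed (bases 2 to 8) in capitals. The first set holds miRNAs found mainly in 1 of the reactions. The assays named for both arms of miR-465a are among them, and their seeds differ.
miR-465a-3p: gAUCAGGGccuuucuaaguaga
miR-465a-5p: uAUUUAGAauggcacugauguga
miR-741: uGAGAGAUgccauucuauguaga
miR-452: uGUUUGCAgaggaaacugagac
miR-468: uAUGACUGaugugcgugugucug
The second set holds abundant miRNAs and the pair of miR-322 and miR-503, and shows the shared seeds.
miR-24: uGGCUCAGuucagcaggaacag
miR-17: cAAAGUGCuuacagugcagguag
miR-20a: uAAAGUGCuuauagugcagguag
miR-106a: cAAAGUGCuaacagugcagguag
miR-16: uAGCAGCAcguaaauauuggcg
miR-322: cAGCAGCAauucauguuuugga
miR-503: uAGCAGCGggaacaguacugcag
MiR-17, miR-20a and miR-106a share 1 seed, and miR-16 and miR-322 share another, from which that of miR-503 differs in its last base. The sequences are the targets in the spot list of the deposited microarrays, matched to the assays by name, and their positions are those of RefSeq on GRCm38.p6. The miR-465a-5p sequence lies at chrX:66839099-66839121 and miR-741 at chrX:66796809-66796831, both on the minus strand. The miR-465a-3p sequence occurs in 5 hairpins of the miR-465 group on the same chromosome, so that its assay cannot tell these copies apart. MiR-452 lies at chrX:72262271-72262292, miR-503 at chrX:53054027-53054049 and miR-322 at chrX:53054306-53054327, all on the minus strand, and miR-468 in a hairpin on chromosome 6. No sequence is shown for miR-708.

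The myoblast profile was led by the same miRNAs in both reactions. The 10 lowest mean Ct values belonged to miR-24, miR-19b, miR-31, miR-29a, miR-16, miR-17, miR-484, miR-20a, miR-222 and miR-106a, of which miR-19b, miR-17, miR-20a and miR-106a come from the miR-17-92 cluster and its paralog, which promote proliferation. MiR-24 had a Ct of 22.00 and 21.99 in RT2 and of 21.89 and 21.95 in RT1 (day 1 and day 2). MiR-31 had 22.85 and 22.99 in RT2 and 22.87 and 22.95 in RT1. MiR-29a, which represses collagen genes, had 23.97 and 23.94 in RT2 and 23.77 and 23.88 in RT1. For miR-24 and miR-29a both RT2 cards lay above both RT1 cards, by a mean of 0.08 and 0.13 cycles, whereas the cards of miR-31 overlapped. MiR-222, which represses the cell cycle inhibitor p27, had 24.92 and 24.96 in RT2 and 24.76 and 24.96 in RT1. None of these 10 miRNAs differed between the reactions by more than 0.13 cycles. The smallest spread over the 4 cards belonged to let-7i (SD 0.0282 cycles, n = 4 cards), miR-30c (0.0310), let-7c (0.0312), miR-92a (0.0319) and miR-16 (0.0329).

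Among the endogenous controls, MammU6, the small nuclear RNA used as the reference, had a mean Ct of 19.59 in RT2 and 19.67 in RT1, so that subtracting it (ΔCt) moved every difference between reactions up by 0.08 cycles. SnoRNA202 had 23.98 in RT2 and 23.85 in RT1, Y1 27.95 and 27.78, and U87 28.70 and 28.52. The Ct of each of these 3 controls was higher in RT2, by 0.12 to 0.18 cycles. SnoRNA135 differed by 0.04 cycles, and the plant miRNA ath-miR159a, the negative control, was undetermined on every card.

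The size of the difference between reactions depended on the level of the miRNA. Over the 181 detectable miRNAs with a Ct on every card, the median absolute difference in raw Ct between RT2 and RT1 was 0.159 cycles, and the largest was 5.33 cycles. In the 10 miRNAs with a mean Ct over 20 to 25 the median was 0.037 cycles, in the 79 over 25 to 30 it was 0.103, and in the 92 over 30 to 35 it was 0.452. Of the 43 miRNAs that differed by more than 0.5 cycles (23.8% of those tested), 42 lay in the highest class. The exception was miR-132, a miRNA known from neurons, with 29.43 and 29.08 in RT2 and 29.73 and 29.99 in RT1. All 20 miRNAs that differed by 1 cycle or more had a mean Ct over 30.

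The days of the PCR served as a yardstick, since cards of the same reaction share the reverse transcription and differ only in the PCR run. Between day 2 and day 1 the median absolute difference was 0.163 cycles over all tested miRNAs, and 0.0733, 0.0965 and 0.416 cycles in the 3 classes. The change of the reaction difference between days, halved to bring it to the same scale, had medians of 0.0345, 0.0965 and 0.400 cycles. Among the most abundant miRNAs the median was smaller between reactions than between days, and in the other classes slightly larger. Cards of both reactions did not overlap for 54 of 181 miRNAs (29.8%), and cards of both days did not overlap for 67 (37.0%).

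**Figure D1:**
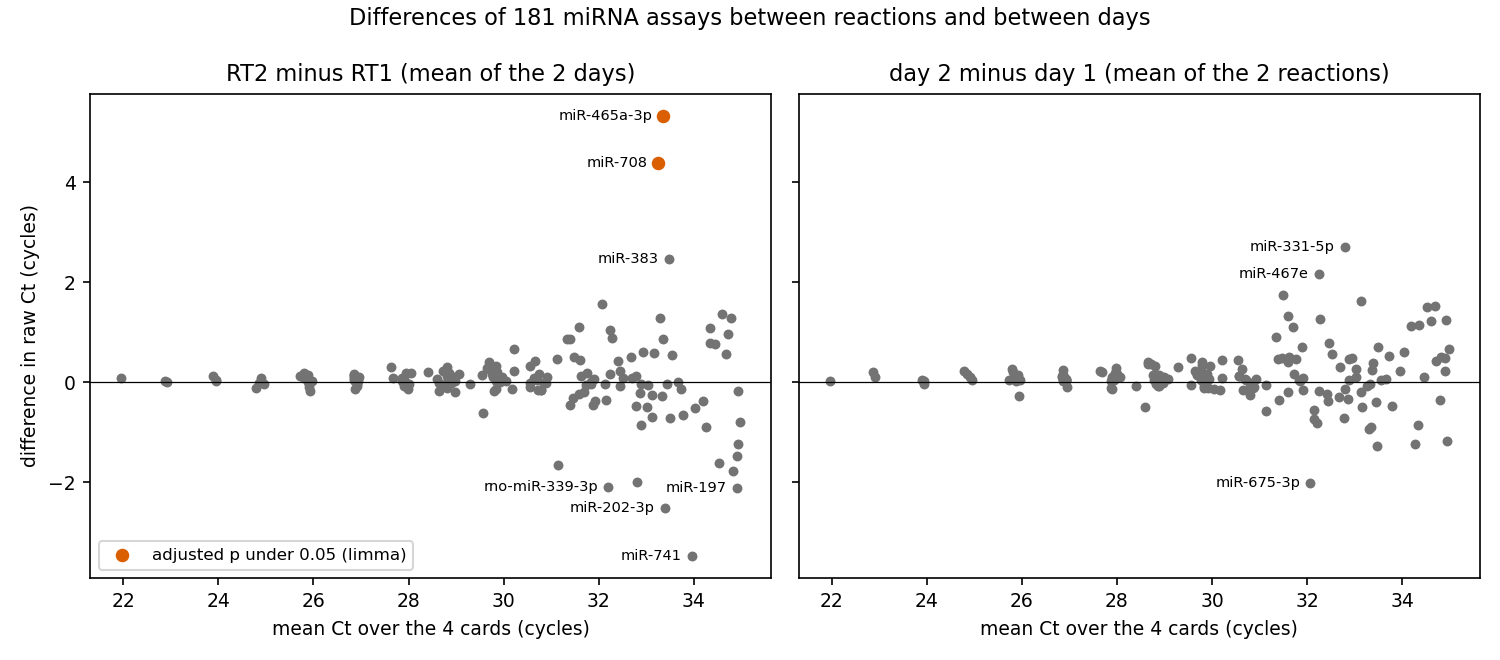
The difference in raw Ct of each of 181 miRNA assays (points, cycles) is plotted against the mean Ct over the 4 cards, for RT2 minus RT1 on the left and day 2 minus day 1 on the right. Points stay close to 0 under a Ct of 30 and spread above it in both panels, and the 2 coloured points, miR-465a-3p and miR-708, lie outside the range seen between days.

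Each reaction was measured on both days, which shows whether a difference between reactions was repeated. The RT2 minus RT1 difference had the same sign on both days for 88 of 181 miRNAs (48.6%). Across miRNAs, which are not independent replicates and share the 4 cards, the reaction differences of the days had a Pearson's r of 0.356 and a Spearman's rho of -0.0255. Without miR-465a-3p, miR-708 and miR-741 the r was 0.0534 over the other 178 miRNAs, so it rested on these 3. The day differences of the reactions had an r of -0.0434.

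**Figure D2:**
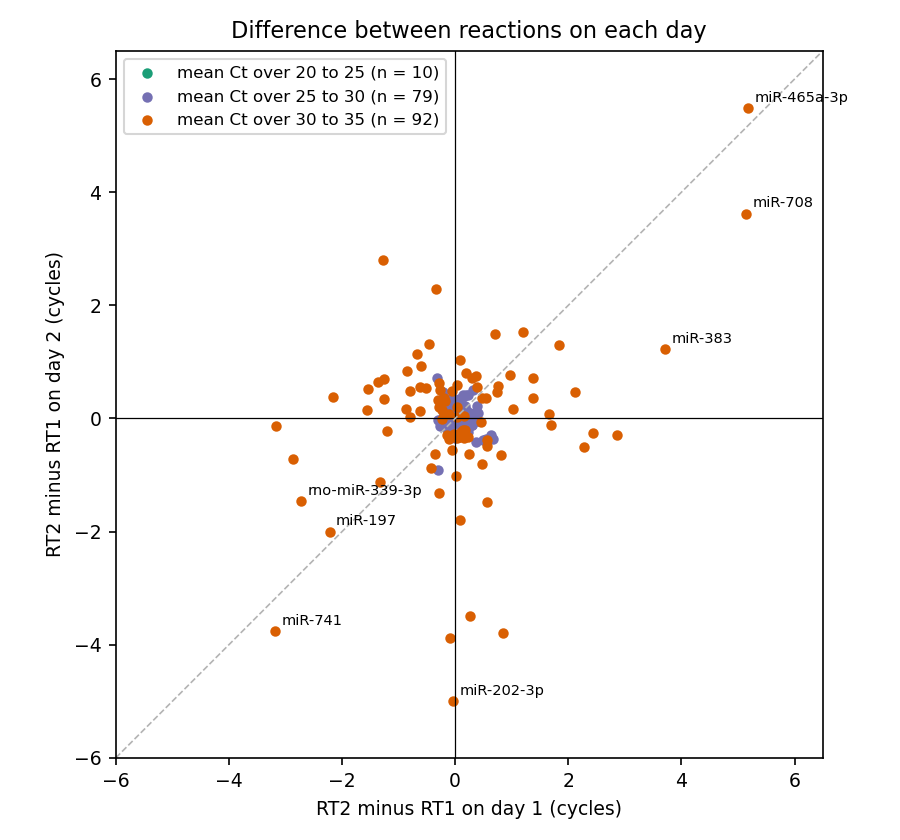
The RT2 minus RT1 difference in raw Ct on day 2 (vertical, cycles) is plotted against that on day 1 (horizontal, cycles) for 181 miRNA assays, coloured by mean Ct, with the dashed line marking equal differences. MiR-465a-3p, miR-708 and miR-741 lie far from 0 near that line, whereas miR-202-3p differed on day 2 only.

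MiR-465a-3p and miR-708 were the miRNAs that differed between the reactions past the threshold, and both had a higher Ct, and so less template, in RT2. MiR-465a-3p is encoded in an X-linked cluster known to be expressed in testis, and miR-708 in an intron of Tenm4. MiR-465a-3p had a Ct of 35.83 and 36.23 in RT2 and of 30.65 and 30.75 in RT1 (day 1 and day 2). MiR-708 had 35.86 and 35.03 in RT2 and 30.72 and 31.41 in RT1. In both, the cards of a reaction lay within 1 cycle of each other and every RT2 card was above the limit of 35, whereas every RT1 card was below 32. On ΔCt the RT2 minus RT1 difference was 5.41 ± 0.670 cycles for miR-465a-3p (SE, adjusted p = 0.00263 by limma) and 4.46 ± 0.680 cycles for miR-708 (adjusted p = 0.00716 by limma). These were 2 of 181 miRNAs tested (1.10%), with 18 at an unadjusted p under 0.05. With the day as a block, which pairs the cards, 4 passed (2.21%), as rno-miR-339-3p (adjusted p = 0.013 by limma) and miR-680 (0.0029) were added. The ΔCt difference of miR-680 was -1.58 cycles, and -0.43 without RT1 day 1, so it rested largely on that card. With each card left out in turn the ΔCt difference was 5.20 to 5.62 cycles for miR-465a-3p and 4.06 to 4.87 for miR-708. Neither passed without RT1 day 1 or without RT1 day 2, which leaves 1 RT1 card (adjusted p of 0.17 to 0.39 by limma), and without RT2 day 1 miR-465a-3p alone did.

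MiR-741, of the same X-linked cluster, differed the other way. It had 32.25 and 32.19 in RT2 and 35.44 and 35.95 in RT1, and the ΔCt difference of -3.39 ± 0.769 cycles did not pass (SE, adjusted p = 0.0882 by limma). The rat assay for miR-339-3p had 31.25 and 31.06 in RT2 and 33.97 and 32.52 in RT1. For both miRNAs the 2 reactions did not overlap, as for 29.8% of all 181 tested, and there was more template in RT2. The mouse assay for miR-339-3p was opposed to the rat one, with 31.64 and 32 in RT2 and 30.68 and 31.23 in RT1, a mean raw difference of 0.87 cycles against -2.09 for the rat assay.

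The other mouse and rat assays of the same name with a Ct on every card were closer. MiR-224 differed by 0.22 cycles between the reactions in the mouse assay and by -0.17 in the rat assay. MiR-351 differed by 0.01 and -0.14 cycles, and miR-532-5p, from an intron of Clcn5, by 0.03 and 0.19 cycles. Each of these 3 had a smaller difference than either assay of miR-339-3p.

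Between days, no miRNA of 181 passed (0%) by limma, with 8 under 0.05 before adjustment. MiR-682 had the smallest p, with 32.77 and 31.96 on day 2 and 30.71 and 30.52 on day 1 (RT2 and RT1), a ΔCt difference of 1.67 cycles (adjusted p = 0.297 by limma). MiR-467e, of the Sfmbt2 cluster, had 33.79 and 32.86 on day 2 and 30.86 and 31.47 on day 1. MiR-675-3p, processed from the H19 transcript, had 31.71 and 30.42 on day 2 and 33.99 and 32.17 on day 1. For these 3 miRNAs the days did not overlap, as for 37.0% of all 181. They were named by their small p-values, so the gap between days follows in part from that choice. There was more template on day 1 for miR-682 and miR-467e and more on day 2 for miR-675-3p. With the reaction as a block, which pairs the cards, 4 miRNAs passed (2.21%), namely these 3 and miR-331-5p. The ΔCt difference of miR-331-5p between days was 2.63 cycles, and 0.78 without RT1 day 2, so it rested largely on that card. MiR-23a, the other miRNA among the 5 smallest p-values, had 28.15 and 28.53 on day 2 and 29.07 and 28.58 on day 1, a range set by the RT2 cards.

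A shift of 1 cycle or more the same way on both days was found between reactions for 9 miRNAs (4.97% of 181), 5 with less and 4 with more template in RT2. The 5 were miR-465a-3p, miR-708, miR-383, miR-375 and miR-675-3p, and the 4 were miR-741, miR-197, rno-miR-339-3p and miR-450b-5p. Between days, 6 miRNAs shifted as far the same way in both reactions (3.31%), and 3 of them, miR-375, miR-450b-5p and miR-675-3p, were also among the 9. MiR-375, known from pancreatic islets, had for instance 34.59 and 35.97 in RT2 and 33.39 and 34.45 in RT1. Their cards nonetheless overlapped in 1 of the comparisons, between days for miR-375 and between reactions for miR-450b-5p and miR-675-3p. At 2 cycles or more, 3 miRNAs shifted the same way between reactions, miR-465a-3p, miR-708 and miR-741, and 0 between days.

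Of the other large mean differences, those of miR-331-5p and miR-680 went with single cards, and that of miR-202-3p with both cards of day 2. MiR-202-3p had 33.18 and 31.09 in RT2 and 33.21 and 36.09 in RT1, so the reactions differed on day 2 only. MiR-331-5p had 31.39 and 32.22 in RT2 and 31.49 and 36.09 in RT1, with 1 card far above the others. MiR-680 had 29.84 and 30.78 in RT2 and 33.01 and 30.92 in RT1, where RT1 day 1 stood apart. MiR-383 had 35.96 and 33.45 in RT2 and 32.26 and 32.22 in RT1, and miR-590-5p 33.13 and 34.72 in RT2 and 35.99 and 35.43 in RT1. For miR-383 and miR-590-5p the reactions did not overlap, as for 29.8% of all 181, and the cards of RT2 were more than 1 cycle apart. MiR-197 had 33.69 and 34.03 in RT2 and 35.91 and 36.02 in RT1, and the cards of each reaction were close.

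**Figure D3:**
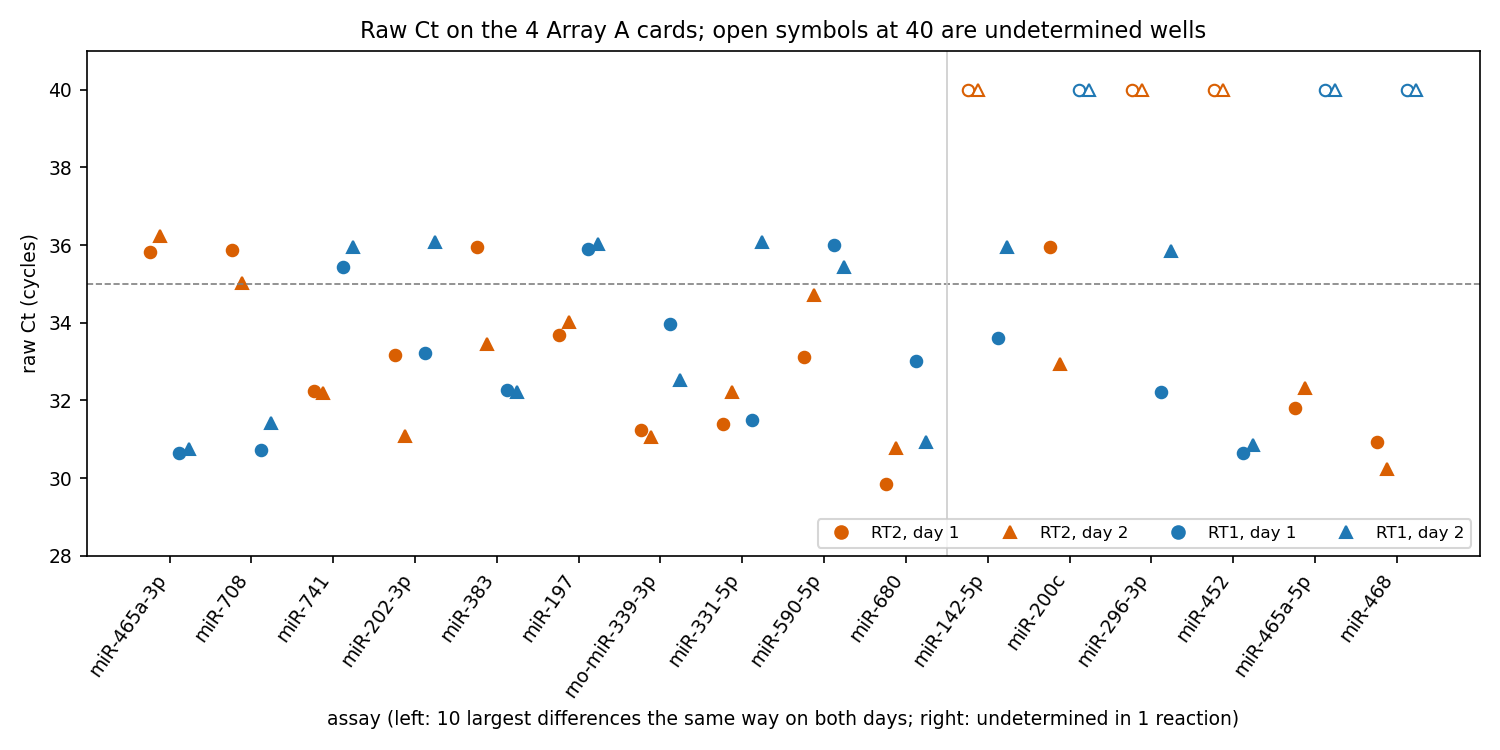
Raw Ct (vertical, cycles) is shown on the 4 cards, RT2 in orange left of RT1 in blue. Circles are day 1 and triangles day 2. The miRNAs are the 10 with the largest mean differences of the same sign on both days and the 6 undetermined in 1 reaction. Only the sign had to match, so a difference could be small on 1 day. Open symbols at 40 are undetermined wells and the dashed line is the limit of 35. The orange and blue symbols are apart for miR-465a-3p, miR-708 and miR-741, and for miR-452 and miR-468 the determined wells lie near 30.

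Wells in which the fluorescence never reached the threshold carry a Ct of 40 and were kept apart. On all 4 cards 112 assays were undetermined, 188 had a Ct on every card, and 75 were undetermined on 1 to 3 cards. For 6 miRNAs both cards of 1 reaction were undetermined and both of the other were not. MiR-452 was undetermined in RT2 and had 30.64 and 30.85 in RT1, which places the Ct of RT2 at least 9.26 cycles above that of RT1 when the end of the run at 40 is taken as the bound. MiR-468 was undetermined in RT1 and had 30.92 and 30.23 in RT2, so that the Ct of RT2 was at least 9.43 cycles below that of RT1. In both, the contrast was the same on each day. MiR-465a-5p was undetermined in RT1 and had 31.80 and 32.33 in RT2, a bound of at least 7.93 cycles. The miR-465a-5p assay thus gave a Ct in RT2 only, and the miR-465a-3p assay gave the lower Ct in RT1. The sequence of the latter is shared by several hairpins of the miR-465 group, so its signal cannot be assigned to the miR-465a hairpin.

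The other 3 miRNAs of this kind had higher and more variable Ct values. MiR-142-5p, from a hairpin active in blood cells, was undetermined in RT2 and had 33.62 and 35.95 in RT1, and miR-296-3p was undetermined in RT2 and had 32.23 and 35.84 in RT1. MiR-200c, an epithelial miRNA, had 35.96 and 32.93 in RT2 and was undetermined in RT1. In each of them 1 of the 2 determined wells lay above 35. For comparison, 5 assays were undetermined on both cards of 1 day only (miR-429, miR-496, miR-544, miR-684 and miR-878-5p), and 9 on 1 card of each reaction and of each day.

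Counting wells at a Ct of 35 or less in place of determined wells, 158 assays reached the limit on every card and 147 on none. Of the 21 that reached it on 2 cards, 12 did so on both cards of 1 reaction, 1 (miR-542-5p) on both cards of 1 day, and 8 on 1 card of each reaction and of each day. The 7 at 35 or less in RT2 only were miR-197, miR-450a-5p, miR-465a-5p, miR-468, miR-590-5p, miR-741 and miR-96. The 5 at 35 or less in RT1 only were miR-452, miR-465a-3p, miR-615-5p, miR-708 and rno-miR-190b. Passing this limit is not presence or absence, as miR-197 had 35.91 and 36.02 in RT1. The 3 miRNAs just inside a mean Ct of 35 were miR-150 (34.98), miR-542-5p (34.94) and miR-450b-5p (34.92), and the 3 just outside were miR-344 (35.06), miR-148a (35.08) and miR-615-5p (35.15). All 6 crossed 35 on at least 1 card and stayed under it on another. MiR-449b had a mean Ct under 35 with an undetermined well, 33.23 and 32.25 in RT2 and 40 and 32.44 in RT1, and was left out of the tests.

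Determined Ct values above 35 were gathered near 36. Of 118 such wells on the 4 cards, 64 (54.2%) were within 0.3 cycles of a Ct of 36, among them both RT2 wells of miR-465a-3p, RT2 day 1 of miR-708 and RT1 day 2 of miR-741. Ct values also gathered just below whole cycles, as 34.0% of all 883 determined wells had a decimal part of 0.9 or more, with the highest share on RT2 day 2 (46.0%). The part of this pattern in the differences between reactions was not tested.

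MiR-322 and miR-503 are made from neighbouring hairpins on the X chromosome, and are known to promote cell cycle exit of myoblasts. MiR-503 had 30.54 and 30.54 in RT2 and 29.79 and 29.96 in RT1, and miR-322 had 28.97 and 28.96 in RT2 and 28.58 and 28.75 in RT1. In both, the Ct was higher in RT2 on each day. The ΔCt differences of 0.74 ± 0.232 and 0.38 ± 0.144 cycles did not pass (SE, adjusted p = 0.361 and 0.451 by limma), and they were the miRNAs that the methods' t-test placed under its own unadjusted threshold. The rest of the cluster did not move together. MiR-351 differed by 0.01 cycles in raw Ct and miR-450b-5p by -1.23, and miR-450a-5p had 33.08 and 34.15 in RT2 and 36 and an undetermined well in RT1.

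The 9 families with a shared seed and at least 3 tested members had median absolute differences of 0.0425 (miR-29) to 0.384 cycles (miR-34a, miR-34c and miR-449a), around the 0.159 of all 181 miRNAs. Let-7 miRNAs repress growth genes in differentiated cells, and the 9 assays were all detectable at mean Ct values of 25.93 (let-7e) to 33.02 (miR-98), and had a median absolute difference of 0.0585 cycles. MiR-98, the scarcest, differed by -0.50 cycles and the others by -0.18 (let-7e) to 0.16 (let-7a). The 6 miRNAs with the seed of miR-17 differed by -0.07 to 0.25 cycles, with miR-106b the highest. The 6 with the seed of miR-16 all had a higher Ct in RT2, by 0.04 (miR-16) to 0.45 cycles (miR-497) and a median of 0.259, as did 111 of all 181 miRNAs. In the miR-30 family, all 5 assays had a higher Ct in RT2, by 0.02 (miR-30c) to 0.16 cycles (miR-30d). Their mean Ct values were over 25 to 30, a class in which 59 of 79 miRNAs had a higher Ct in RT2. The 4 members of the family of miR-130 and miR-301, which share a seed too, differed by -0.45 to 0.19 cycles, and miR-34a, miR-34c and miR-449a by -0.38 to 0.59. No member of these families passed the test between reactions, which 1.10% of all 181 miRNAs did.

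**Figure D4:**
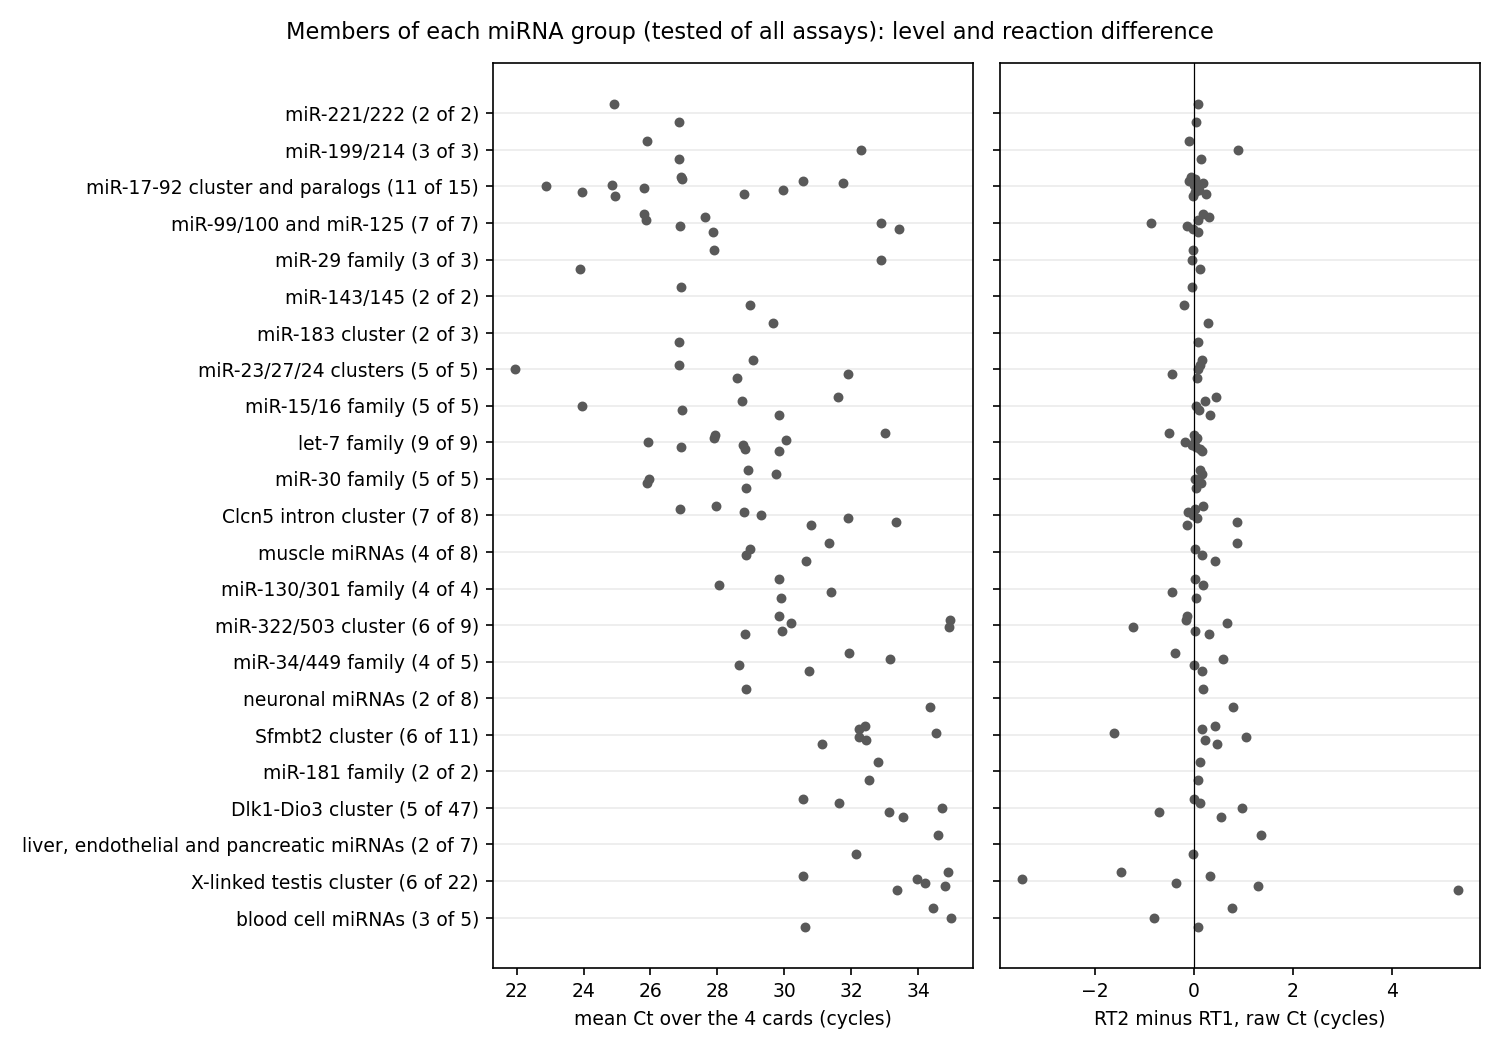
For each group of miRNAs, the mean Ct over the 4 cards (left panel, cycles) and the RT2 minus RT1 difference in raw Ct (right panel, cycles) of its tested members are shown as points, with the groups ordered by median Ct and the number tested of all assays in brackets. The let-7, miR-30 and miR-17-92 members lie between -0.50 and 0.25 cycles, and the X-linked testis cluster spans -3.47 to 5.33 cycles.

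Other groups of miRNAs differed to various extents. In the miR-17-92 cluster and its paralogs, 11 of 15 assays were detectable, with a median absolute difference of 0.0750 cycles and none over 0.25. The miR-29 family had 0.0425 cycles over 3 assays and miR-221 with miR-222 0.0660 over 2. The miR-23/27/24 clusters had a median of 0.130 cycles, in which miR-23b, with 31.82 and 31.50 in RT2 and 31.25 and 32.98 in RT1, differed most. Of the cluster of miR-199a and miR-214, known from mesenchymal cells, miR-199a-3p (26.90 and 26.97 in RT2, 26.70 and 26.89 in RT1) and miR-214 differed by 0.14 and -0.10 cycles. MiR-199a-5p differed by 0.88 cycles, with 32.78 and 32.65 in RT2 and 30.51 and 33.16 in RT1. Its 1 low card was RT1 day 1. In the miR-181 family, miR-181a differed by 0.57 cycles on day 1 and -0.38 on day 2, and miR-181c by -0.27 and 0.51, so that the mean differences of 0.09 and 0.12 cycles came from opposite signs on the 2 days.

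Of 8 assays of muscle miRNAs 4 were detectable, a share close to the 48.5% of all 375 assays. Their mean Ct values were 28.85 (miR-133b) to 31.34 (the rat assay of miR-1). The RT2 minus RT1 differences in raw Ct were 0.02 cycles for miR-486, 0.17 for miR-133b, 0.42 for miR-133a and 0.86 for the rat assay of miR-1. MiR-133a, which supports myoblast proliferation, had 30.96 and 30.75 in RT2 and 30.49 and 30.38 in RT1. The rat miR-1 assay had 31.58 and 31.97 in RT2 and 30.20 and 31.62 in RT1, and the mouse assay 34.97 and an undetermined well in RT2 and 31.81 and 34.76 in RT1. The reactions did not overlap for miR-133a, as for 29.8% of all 181, and did overlap for the rat miR-1 assay at day 2 of RT1. None of the 4 passed the test, which 1.10% of all 181 miRNAs did, and the smallest unadjusted p by limma was 0.0704. MiR-499 and miR-208, made from introns of myosin genes, each had a single undetermined well, both on RT2 day 2, the card with the most undetermined wells (164, against 150 to 152 on the others).

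The X-linked testis cluster had the largest median difference of the groups. Of its 22 assays, 6 were detectable, with a median Ct of 34.07. Their median absolute difference was 1.38 cycles between reactions and 0.298 between days. All 92 miRNAs over 30 to 35 had 0.452 between reactions and 0.416 between days. In that class the difference between reactions rose with mean Ct (Spearman's rho 0.523 over the 87 with a sequence). The 92 are therefore not matched to the cluster in level, and the part of level in its difference was not tested. Of the 6, 1 passed the test, miR-465a-3p, against 2 of all 181 (1.10%). The members moved in both directions, and miR-743a, the most abundant of them, was steady with 30.52 and 30.92 in RT2 and 30.48 and 30.33 in RT1. MiR-881 had 35.08 and 33.24 in RT2 and 34.24 and 37.03 in RT1, where the order of the reactions turned between days. MiR-465b-5p had 36.03 and 34.85 in RT2 and 33.91 and 34.38 in RT1.

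Of 47 assays of the imprinted Dlk1-Dio3 cluster, 33 were undetermined on every card and 5 were detectable, with a median absolute difference of 0.552 cycles. The largest in this group was that of miR-409-3p, with 34.33 and 36.08 in RT2 and 34.67 and 33.79 in RT1. In the Sfmbt2 cluster, 6 of 11 were detectable, with a median of 0.451 cycles, close to that of all miRNAs in the same range of Ct. MiR-467c, with 33.01 and 32.50 in RT2 and 31.64 and 31.80 in RT1, had a higher Ct in RT2 on both days, and miR-467d had 1 high card, 37.03 on RT1 day 2. No member of these clusters passed the test between reactions, against 1.10% of all 181.

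Markers of other cell types were mostly not detectable, whereas 182 of all 375 assays (48.5%) were and 112 were undetermined on every card. None of 12 assays of the miR-290 and miR-302 clusters of embryonic stem cells and none of 7 epithelial assays was detectable, and 9 and 1 of these were undetermined on every card. Of 5 blood cell assays 3 were detectable, and miR-142-3p was steady at 30.40 and 30.95 in RT2 and 30.59 and 30.58 in RT1. MiR-223, a myeloid miRNA, had 33.76 and 35.90 in RT2 and 35.04 and 33.09 in RT1, so the order of the reactions turned between days. Among neuronal miRNAs, 2 of 8 assays were detectable and 5 were undetermined on every card. MiR-9 was detected evenly, with 28.92 and 28.98 in RT2 and 28.81 and 28.71 in RT1, and miR-128a had a mean Ct of 34.34. Of 7 assays of liver, endothelial and pancreatic miRNAs 2 were detectable, miR-375 and miR-126-3p. MiR-126-3p, an endothelial miRNA, had 32.48 and 31.76 in RT2 and 32.34 and 31.97 in RT1.

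On the microarrays of the same RNA, the classes with a higher Ct had lower median intensities, and the miRNAs shifted between the reactions came from the dimmest tested class. The median background-subtracted intensity was 1587 for the miRNAs with a mean Ct over 20 to 25, 195 for those over 25 to 30, 19.8 for those over 30 to 35 and 14.5 for those undetermined on all 4 cards. Single miRNAs departed from this order, so a rank by Ct is not a rank by intensity. MiR-19b, at a mean Ct of 22.87, had 35.8 and 32.8 on the arrays, and let-7c, at 26.92, had 27565 and 31748. For the 8 of 9 miRNAs shifted by 1 cycle or more the same way that the microarrays also held, the median was 15.3. This was near the medians of undetermined assays and of all miRNAs over 30 to 35, the class that holds these 9. MiR-465a-3p had 15.0 and 17.6 on the 2 arrays and miR-708 11.7 and 16.8. MiR-197 was the brightest of these miRNAs, with 44.6 and 56.5.

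Base composition was set beside the differences. Among miRNAs with a mean Ct over 30 to 35 and a known sequence, the 19 that differed by 1 cycle or more had a median GC content of 50.0% and the 68 others 47.7%. The median number of G or C among the last 6 bases was 3 in both. Across these 87 miRNAs, as a description, Spearman's rho of the absolute difference between reactions was -0.0359 with GC content and 0.523 with mean Ct.

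The spread between the Array A reactions was set beside that of the 2 Array B cards without pre-amplification, which hold other miRNAs and less RNA. At a mean Ct over 25 to 30, the median absolute difference between single cards was 0.153 cycles on day 1 and 0.134 on day 2 between RT2 and RT1 (79 miRNAs), and 0.143 between the Array B cards (16 miRNAs). Over 30 to 35 it was 0.527 and 0.517 cycles on Array A (92 miRNAs) and 0.377 on Array B (43 miRNAs). The 90th percentile was 2.26 and 1.97 cycles on Array A and 1.17 on Array B. No test of this difference was made, as the cards hold different assays.

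The precision of the cards sets what could be seen. The median half-width of the 95% interval of the ΔCt difference between reactions by limma was 0.240 cycles over 20 to 25, 0.343 over 25 to 30 and 1.37 over 30 to 35. For miR-24 the interval was -0.11 to 0.41 cycles, and for miR-16 -0.11 to 0.35. With 2 cards against 2, an exact permutation test of a single miRNA, two-sided, cannot go below p = 0.333.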

How the data were processed

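Reverse transcription products of 500 ng of C2C12 RNA were measured on 4 Array A cards. For each assay the authors deposited a raw Ct, read with automatic baseline and a common threshold in the SDS software, with 40 for wells that were undetermined, and the same values minus the Ct of MammU6. The raw Ct values were used and the subtraction was repeated, to within 0.001 cycles of the deposited values. Among the 201 to 212 assays determined on both cards of a pair, none had the same Ct at the 3 decimals deposited. For the microarrays, the deposited intensity was a background-subtracted spot value, averaged here over the spots of a miRNA, and the spot list gave the target sequences (333 of the assays matched by name). Amplification curves were not used here.

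Of 375 miRNA assays, 182 had a mean Ct of 35 or less, and 181 of these had no undetermined well and were tested. RT2 was compared with RT1, and day 2 with day 1, on ΔCt with limma 3.58.1 in R 4.3.3 (lmFit, eBayes with a trend) and Benjamini-Hochberg adjustment over the 181 miRNAs, at a threshold of 0.05. This step was tested on simulated data. Python 3.11.15, pandas 2.3.3 and matplotlib 3.10.9 were used for all other values.

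By the labels the replicate number is the day of the PCR, which pairs the cards of both reactions, and likewise the reaction pairs the cards of both days. Day differences of the reactions correlated at -0.0434 over the 181 miRNAs, and reaction differences of the days at 0.356. Alternatives were fits with the day or the reaction as a block, raw Ct values, Ct minus the mean of the card, other endogenous controls, other limits of Ct, other handling of undetermined wells, no trend, the methods' t-test, and each card left out in turn.

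The groups of miRNAs, the comparisons and the miRNAs named were chosen with earlier results of these data known. The rule named the 10 lowest mean Ct values, the 5 smallest p-values of each comparison, and the 10 largest mean differences of the same sign on both days. It also named assays undetermined in 1 reaction, the 5 smallest SDs, 3 assays on each side of 35, miR-322 and miR-503, and examples of each group. The limit of 1 cycle on both days, the assays above it, miR-132, the mouse and rat assays of 1 name and the assays found at 35 or less in 1 reaction were chosen after their values were seen.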

Additional observations from a re-analysis of the deposited data

How the results depend on the processing

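The count of 2 miRNAs that differed between the reactions was unchanged with raw Ct values, Ct minus the card mean, other endogenous controls, and undetermined wells at 40 or as missing values. It was 4 without a trend and 4 with the day as a replicate block. By the methods' t-test it was 0 after Benjamini-Hochberg adjustment and 2 at its own threshold of 0.01, namely miR-503 and miR-322. The limma count was 0 at a mean Ct limit of 30 and with every card at 35 or less, but both settings leave out miR-465a-3p and miR-708. With each card left out in turn it was 0 to 2. Between days, the count of 0 was 3 with every card at 35 or less, 4 with the reaction as a replicate block, which pairs the cards, 1 by the methods' t-test at 0.01, and 0 to 1 with each card left out. The median absolute difference between reactions of 0.159 cycles was 0.197 on ΔCt, 0.143 around the card mean, 0.092 at a mean Ct limit of 30, and 0.225 to 0.267 on a single day, as fewer cards are averaged. The 182 detectable assays were 125 at a limit of 32, 89 at 30, 158 with every card at 35 or less, 211 by the mean of the determined wells, and 182 to 185 with each card left out. Shifts the same way numbered 14 at 0.5 cycles and 3 at 2 cycles between reactions, and 13 and 0 between days, limits added after seeing the data. MiR-331-5p had a ΔCt difference between reactions of -1.91 cycles, and of -4.11 to 0.30 with each card left out, the reversal coming without RT1 day 2. All cards come from 1 RNA sample, 2 cards a group leave limma dependent on the spread shared across miRNAs, and at mean Ct values over 30 the median half-width of the unadjusted 95% interval was 1.37 cycles.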
